A study of Drosophila melanogaster with 4 samples.

Results

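The regions described here are the long autosomal domains of JHDM1 enrichment in nuclei of adult Drosophila melanogaster heads. They are the enriched regions of the whole-series list that lie on the large autosomal arms 2L, 2R, 3L and 3R and exceed 10000 bp. The rule kept 411 of the 6092 regions, called clusters below, that this list holds on the 4 arms, and the list holds 8005 clusters in all. They were chosen by length alone, as measured in that list. The study mapped JHDM1 on chromatin by ChIP-seq, which sequences the DNA that an antibody pulls down together with its target protein. It comprised 2 ChIP libraries with the antibody Q2634 and 2 input libraries, each input being the background of the ChIP library with its number. All libraries came from the wild-type strain Oregon-R at the stage given as mixed adult, with no treatment and no mutant group. Heads were sieved from flies of population cages, so each library pools the cell types of the head over many animals. The labels leave unsaid whether the replicate libraries stem from different fly populations, and their spread may be technical.

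JHDM1 is a synonym of Kdm2 (CG11033) in the RefSeq gene table of the fly, which also lists it under the name dRAF1. Its protein belongs to the JmjC family of demethylases, enzymes that remove methyl groups from histone lysines. In Drosophila it is a subunit of dRAF, a complex with Polycomb group proteins that joins histone demethylation to the ubiquitylation of histone H2A. Chromatin proteins can bind in narrow peaks at promoters and enhancers or over broad stretches that take in whole genes and gene clusters. The domains are the broad end of that range in these data. Which genes they hold was not analysed here, since the coordinates are those of FlyBase release 5 and the gene table is of another release.

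The domains being chosen by length, and the score of a cluster coming from the same enrichment calls, lengths and scores are descriptions with no test. The whole-series list carries the name of the replicate set, and its overlap with the replicate lists is no independent check either. Only lists of ChIP enrichment were analysed, not the inputs on their own, so no test between groups of samples was made. Shares carry 95% Wilson intervals that treat domains as independent and cover counting error only. No file gives read depth, so a single boundary or score has no error of its own here.

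The domains were few but long. They made up 6.75% (95% interval 6.14 to 7.40%) of the autosomal clusters and 24.1% of the base pairs in them, 5.97 of 24.8 Mb. They covered 6.18% of the 96.6 Mb of the 4 arms. Their length ran from 10.0 to 42.3 kb with a median of 13.0 kb, against 1.0 to 10.0 kb with a median of 2.6 kb in the 5681 shorter clusters. Most were only a little over the limit: 280 of them (68.1%) were at most 15 kb long, 84 were over 15 and up to 20 kb, and 47 (11.4%) were over 20 kb. Those 47 held 19.5% of the base pairs in domains. The 5 domains nearest above the limit were 10005 to 10045 bp long with scores of 0.78 to 1.34. The 5 autosomal clusters nearest below it were 9971 to 9989 bp long with scores of 0.76 to 1.34, a similar range.

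The longest domain lay on 2L from 10237918 to 10280246 and spanned 42.3 kb with a score of 1.46 in the whole-series list. In replicate 1 it appeared as clusters of 7.8, 6.4 and 27.4 kb that covered 98.2% of it. In replicate 2 it appeared as clusters of 24.6, 17.2 and 13.6 kb that covered 99.5%, and the last of these ran on into the next domain. Both replicates thus held it nearly whole, with breaks at different places.

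The domain of 40.1 kb near the telomeric end of 3L, from 222150 to 262244, was the one in most pieces. Replicate 1 had 8 clusters of 3.4 to 7.8 kb there, which covered 81.6%. Replicate 2 had 2, of 34.2 and 5.7 kb, which covered 98.9%. The same stretch was therefore a chain of kilobase-sized clusters in one library and almost a single block in the other. A domain of 32.1 kb on 3L, from 12725276 to 12757416, had 3 clusters in replicate 1 and a covered share of 73.0%. In replicate 2 it lay under 1 cluster of 40.8 kb that covered 95.4% of it and ran past its end. On 2L from 21152870 to 21178172, replicate 1 had 5 clusters over a domain of 25.3 kb and replicate 2 had 1 that covered it completely.

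The opposite pattern was found as well. On 2L from 2747496 to 2771374, a domain of 23.9 kb was 1 cluster in replicate 1, with a covered share of 100.0%. It was 6 clusters in replicate 2, with a share of 78.3%. On 3R from 1473062 to 1496552, a domain of 23.5 kb was 2 clusters in replicate 1 and 5 in replicate 2. The domain on 3R from 2889534 to 2925190, of 35.7 kb, was split in both, into 3 clusters in replicate 1 and 4 in replicate 2.

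The rest of the 12 longest domains were 25.4 to 32.0 kb long, with scores of 0.95 to 1.39. All of them were split in both replicates, and the covered shares ranged from 76.2 to 95.1% in replicate 1 and from 82.2 to 99.4% in replicate 2. On 2L from 18681812 to 18711906, a domain of 30.1 kb had 5 clusters and a share of 76.2% in replicate 1, against 4 clusters and 99.2% in replicate 2. On 2L from 13365194 to 13396076, a domain of 30.9 kb had 3 clusters and 83.5% in replicate 1 and 4 clusters and 82.2% in replicate 2. In both of these domains the libraries were within 1 piece of each other, but only in the first did the covered shares differ widely. Among shorter domains, one of 19.2 kb on 2R from 17202922 to 17222120 was in 6 pieces in replicate 1 and 1 in replicate 2. Another of 14.6 kb on 2R from 19251244 to 19265858 was in 3 pieces in replicate 1 and 5 in replicate 2.

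**Figure D1:**
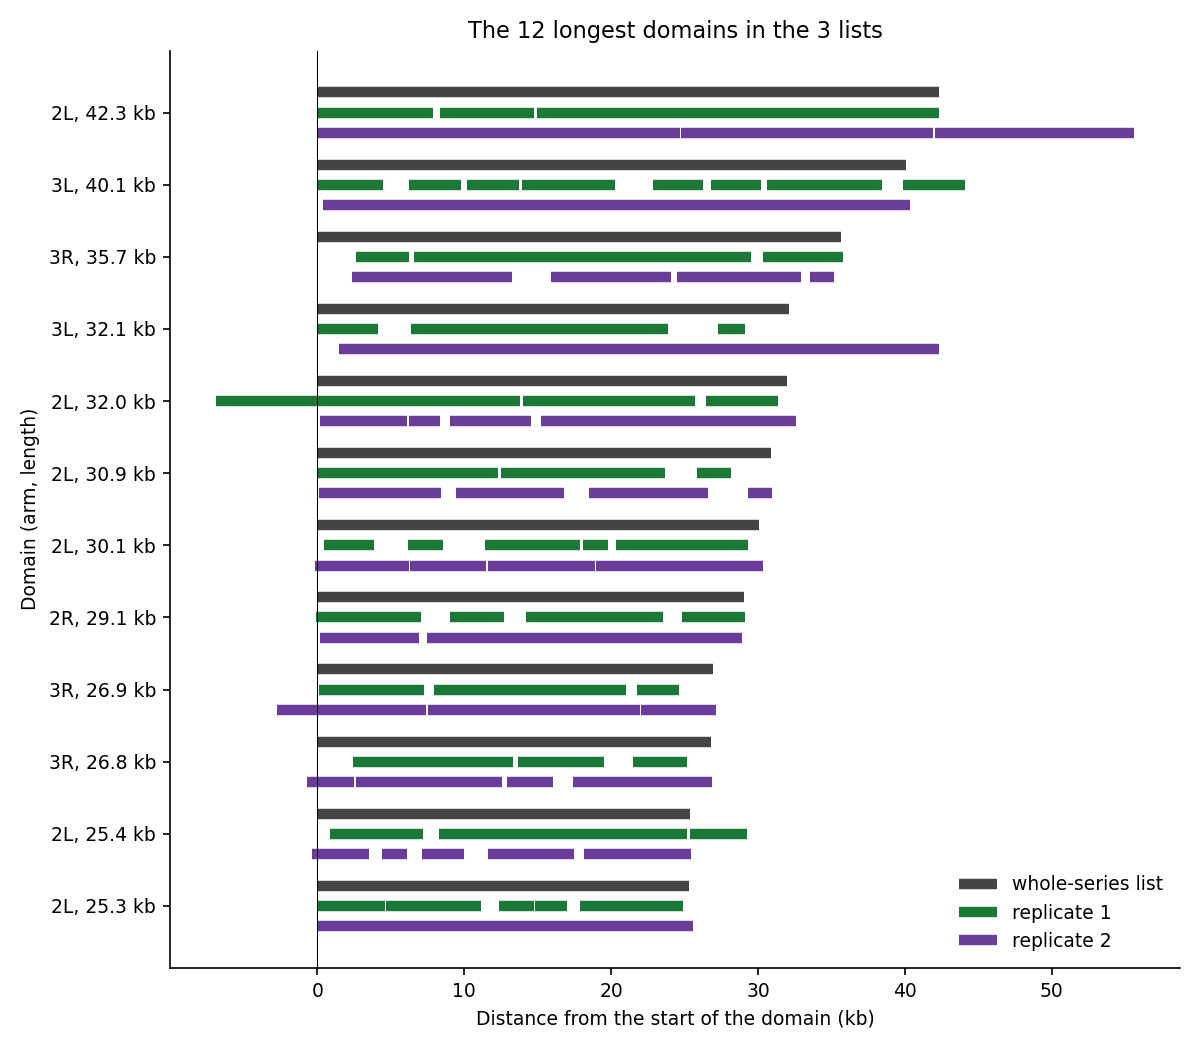
The 12 longest domains, each with its extent in the whole-series list (grey), in replicate 1 (green) and in replicate 2 (purple), against distance from the start of the domain in kb. Bars are clusters, and very short gaps do not show at this scale. Replicate 1 breaks the domain of 40.1 kb on 3L into 8 clusters and replicate 2 into 2 (34.2 and 5.7 kb).

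Along the genome the domains were spread over all 4 arms. Arm 3R held 128, 2R 99, 2L 98 and 3L 86. Per Mb of arm this was 4.68 on 2R, 4.59 on 3R, 4.26 on 2L and 3.50 on 3L. The low density on 3L did not come with few clusters: that arm had 63.9 clusters per Mb, more than the 61.0 of 3R and the 58.8 of 2L. Of the clusters on 3L, 5.48% (4.46 to 6.72%) were long, against 7.52% (6.36 to 8.87%) on 3R, 7.25% on 2L and 6.74% on 2R, and the intervals of 3L and 3R overlapped. The median length per arm lay between 12.4 kb on 2R and 13.5 kb on 3L, and the median score between 1.06 and 1.10.

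Along an arm the domains were spread much like the shorter clusters. Of the domains 29.9% (25.7 to 34.5%) lay in the third of each arm nearest its telomeric end, against 34.0% of the shorter clusters. The third toward the centromere held 33.8% of the domains and 32.3% of the shorter clusters. The outermost 1 Mb differed between arms. For these windows a domain was placed by its edge nearer the arm end and a cluster by its midpoint. In the 1 Mb that ends the assembled arm toward the centromere, 3R had 7 domains among 68 clusters, the nearest 46.6 kb from the end. Arm 2L had 3 domains among 36 clusters there, 2R had 1 among 40, and 3L had 0 among 23. The last domain of 3L stood 1669 kb from that end. At the telomeric end 2L had 8 domains among 60 clusters, 3L 5 among 66, 2R 4 among 75 and 3R 2 among 60.

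On the scale of 1 Mb the number of domains varied from 0 to 13. The median of the 95 full bins was 4. The densest was on 2L from 10 to 11 Mb, where 13 of 57 clusters were domains and took up 22.8% of the sequence. Next came 3R from 5 to 6 Mb with 10 of 83 clusters, and then 2L from 13 to 14 Mb with 9 of 53 and 2R from 3 to 4 Mb with 9 of 91. The 3 bins with none were 2L from 14 to 15 Mb, 3L from 2 to 3 Mb and 3L from 23 to 24 Mb. The bin on 3L from 2 to 3 Mb held 62 clusters without a long one among them, while that on 2L from 14 to 15 Mb held 36. Across the bins, the number of domains rose only loosely with the number of shorter clusters (Spearman's rho 0.27 over 95 bins of the same list, given as a description). Places rich in clusters were thus not always rich in long ones.

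Neighbouring domains were separated by a median of 117 kb, but the gaps ran from 33 bp to 1.57 Mb. The median depended on which clusters counted as long: it was 365.5 kb between the clusters over 10 kb of replicate 1 alone (without replicate 2), 221.8 kb between those of replicate 2 alone (without replicate 1), and 323.0 kb between the domains over 15 kb. Their mean of 214 kb was well above the median and their SD was 253 kb (407 gaps). Of the gaps, 55 (13.5%) were at most 10 kb and 52 (12.8%) exceeded 500 kb. The median per arm was 99.0 kb on 2L, 113 kb on 3R, 114 kb on 2R and 175 kb on 3L.

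**Figure D2:**
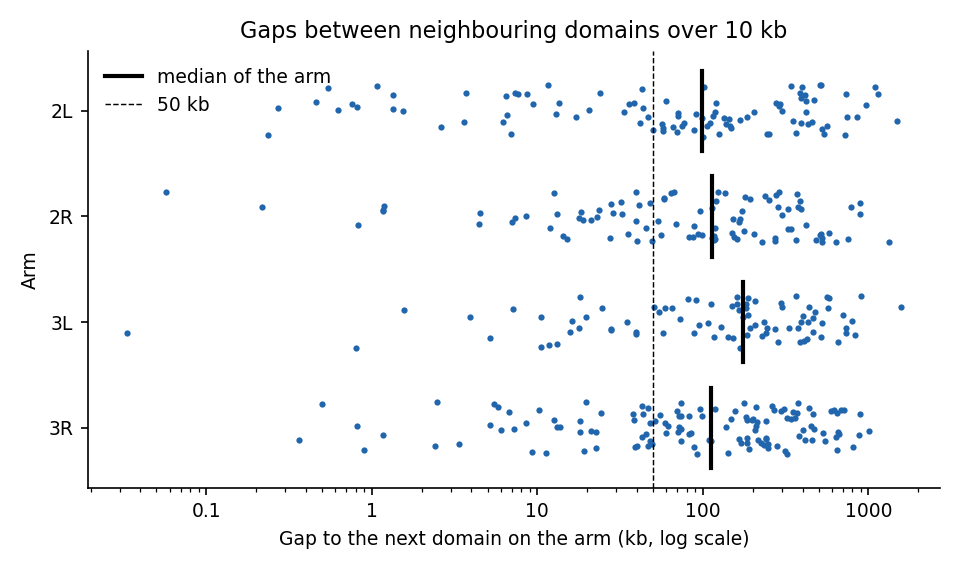
Gap from each domain to the next on the same arm, in kb on a log scale, with 1 point per gap, the median of each arm as a black bar and the 50 kb link distance as a dashed line. The gaps spread from 33 bp to 1.57 Mb, and the medians lie between 99.0 kb on 2L and 175 kb on 3L.

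Many domains came in groups, though the share depended on the link distance. When domains with at most 50 kb between them were linked, 216 of the 411 (52.6%, 47.7 to 57.3%) fell into 82 groups of 2 or more, and 31 groups had 3 or more. The share was 39.9% at 25 kb and 70.1% at 100 kb, and 30.5% among domains over 15 kb linked at 50 kb. Whether it exceeds what the density of domains alone would give was not tested. The groups below are those linked at 50 kb. The largest group held 10 domains on 2L from 10198310 to 10442114, where domains filled 79.3% of 243.8 kb. It included the longest domain of all. The others in it were 10.6 to 22.7 kb long, with scores of 0.99 to 1.41. Replicate 1 covered 84.1% of that stretch with 32 clusters and replicate 2 covered 89.0% with 26, where the whole-series list had 16. The second group held 7 domains on 2R from 19783628 to 19991922 and was looser, with domains on 47.7% of 208.3 kb. Replicate 1 covered 53.5% of it and replicate 2 covered 69.9%. The next 3 groups had 4 domains each. That on 3L, from 193484 to 366612, had domains on 51.6% of 173.1 kb. Those on 3R began at 1354228 and at 13984652, with domains on 57.9% of 142.3 kb and on 62.2% of 98.0 kb. A further group of 4 on 3R, from 9462892 to 9526422, was picked after its values were seen because it was compact. Its domains of 12.3 to 13.8 kb filled 82.8% of 63.5 kb.

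Some domains were separated by a short break only. Of the 407 neighbouring pairs, 37 (9.09%) had no cluster of any length between them, and their gaps had a median of 1167 bp. The closest pair, on 3L, was made of domains of 14.0 and 11.7 kb that started at 8102690 and 8116752 and were 33 bp apart. The next, on 2R, consisted of domains of 12.3 and 20.9 kb that started at 4979242 and 4991628 and were 57 bp apart. Of the other 3 of the 5 closest pairs, 1 was on 2R with a gap of 217 bp and 2 were on 2L. The gap on 2L that followed the domain of 42.3 kb was 237 bp, and the one before the domain of 32.0 kb was 273 bp. A single cluster bridged 2 of the 37 gaps in replicate 1 and 4 in replicate 2.

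The widest domain-free stretches were not empty of JHDM1. The widest, on 3L between 1541470 and 3113860, held 118 shorter clusters over 1.57 Mb and was covered at 21.1% in replicate 1 and 21.3% in replicate 2. On 2L between 8390584 and 9887386 there were 107 shorter clusters over 1.50 Mb, with covered shares of 17.7% in replicate 1 and 18.1% in replicate 2. A stretch of 1.10 Mb on 2L between 13906722 and 15004464 was thinner, with 40 clusters and shares of 7.4% in replicate 1 and 7.3% in replicate 2. The other 3 of the 6 widest stretches had shares of 10.6 to 18.2% in replicate 1 and 11.1 to 19.1% in replicate 2.

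Most domains had another cluster close by. The gap to the nearest cluster of any length had a median of 861 bp, against 1455 bp for the shorter clusters and 915 bp for the clusters over 5 and up to 10 kb. It was under 1 kb for 53.3% of the domains (48.5 to 58.1%), against 40.9% of the shorter clusters (39.6 to 42.2%) and 52.1% of those over 5 and up to 10 kb. A cluster-free stretch of 30 kb or more flanked 42 domains (10.2%, 7.65 to 13.5%) and 19.7% of the shorter clusters. The clusters over 5 and up to 10 kb stood between, at 14.0% (12.1 to 16.2%).

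The scores of the domains were moderate and narrowly spread. They ranged from 0.65 to 2.28 with a median of 1.08 in the whole-series list, against 0.06 to 3.63 with a median of 0.71 in the shorter clusters. The clusters over 5 and up to 10 kb came close to the domains, with a median of 1.01. Their quartiles were 0.84 and 1.26, against 0.96 and 1.25 in the domains. Of the domains 406 (98.8%) scored above that median of 0.71 and 10 (2.43%) lay in the lower part of all autosomal scores, below their median. None was among the 100 highest autosomal scores, and 18 were among the 500 highest, while domains were 6.75% of all autosomal clusters. The highest score of a domain, 2.28, ranked 119 among all autosomal clusters. It belonged to a domain of 12.8 kb on 3R, from 4483966 to 4496744, which was 1 cluster in each replicate with scores of 2.30 in replicate 1 and 2.39 in replicate 2. The next was a domain of 11.6 kb on 2L from 16714218 to 16725842, with 2.06 in the whole-series list, 2.14 in replicate 1 and 2.03 in replicate 2. The scale of the score may differ between lists. Within each replicate list, these 2 domains scored above the median of the autosomal clusters over 10 kb, 1.16 in replicate 1 and 1.48 in replicate 2. A domain of 11.7 kb on 2L from 19017804 to 19029472, which also scored 2.06 in the whole-series list, was split into 3 in both replicates. Its largest piece scored 1.32 in replicate 1 and 0.75 in replicate 2. The scores of its smaller pieces were not examined and may be higher. The remaining high scores were those of domains of 18.0 kb on 2L from 2872082 (1.98) and of 21.1 kb on 3R from 4863390 (1.87). The lowest score, 0.65, was that of a domain of 10.4 kb on 2R from 4800488 to 4810880, which was split into 2 and covered at 54.2% in replicate 1 and at 70.5% in replicate 2. The next 4 from the bottom scored 0.69 to 0.71 and were 10.4 to 12.1 kb long.

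Score hardly followed length among the domains. Spearman's rho was 0.12 across the 411 domains, against 0.63 across the 5681 shorter clusters. It was 0.09 already among the 1097 clusters over 5 and up to 10 kb, and 0.05 and 0.03 among the domains up to 15 kb and above. Among the clusters up to 5 kb it was 0.61 as a whole, but -0.41 over the 1714 clusters up to 2 kb and 0.31 over the 2870 clusters over 2 and up to 5 kb. By arm it ran from 0.00 on 2L to 0.22 on 3R, with 0.06 on 2R and 0.15 on 3L. The replicate lists had the same form. Their autosomal clusters over 10 kb gave rho of -0.05 in replicate 1 (178 clusters) and 0.10 in replicate 2 (237 clusters), against 0.60 and 0.70 in the shorter clusters of the same lists. All of these coefficients run across clusters of the same libraries, which are not replicates, so they carry no p.

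**Figure D3:**
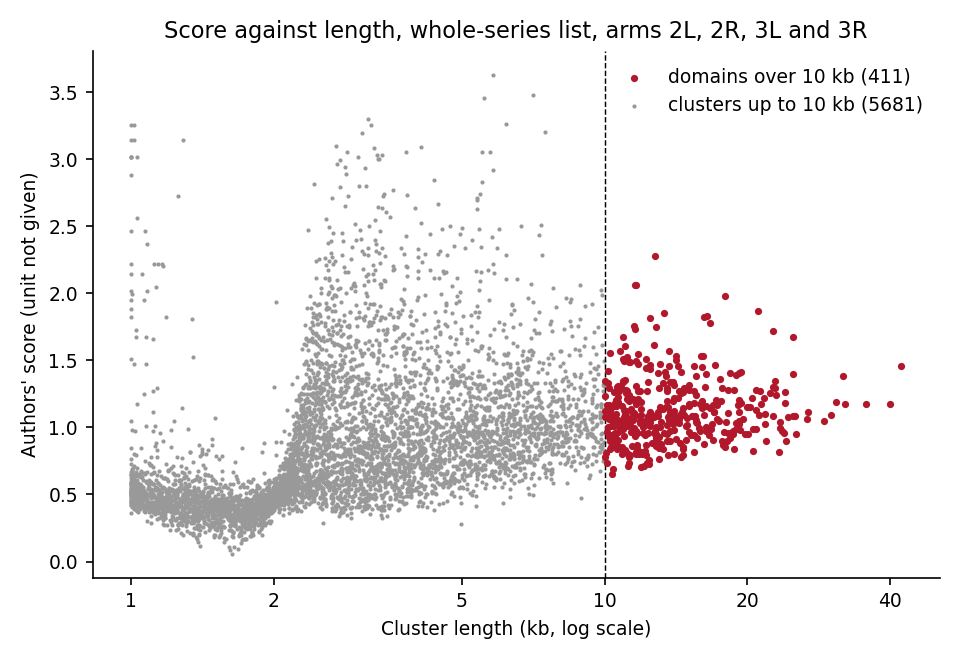
The authors' score against cluster length (log scale) for the 411 domains (red) and the 5681 shorter autosomal clusters (grey) of the whole-series list, with the limit of 10 kb dashed. Domain scores stay between 0.65 and 2.28 at every length, while shorter clusters reach 3.63.

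Every domain was found in both replicate lists. A domain is called single where 1 replicate cluster touches it by at least 1 bp, split where 2 or more do and absent where none does. The number absent was 0 of 411 in replicate 1 and 0 of 411 in replicate 2 (each with an upper Wilson bound of 0.926%), against 17.9% and 22.7% of all autosomal clusters. All 411 were touched in both replicates, against 68.7% of all autosomal clusters. Of the clusters over 5 and up to 10 kb, 99.1% were touched in both too.

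The domains were more often split than single. In replicate 1, 299 (72.7%, 68.2 to 76.8%) were split, against 12.2% of all autosomal clusters, and 112 (27.3%) were single, against 70.0%. In replicate 2, 253 (61.6%, 56.8 to 66.1%) were split, against 12.1% of all autosomal clusters, and 158 (38.4%) were single, against 65.2%. These shares depended on short gaps: with replicate clusters joined across gaps of up to 1000 bp they were 31.9% in replicate 1 and 19.2% in replicate 2. The share split in the clusters over 5 and up to 10 kb was 29.6% in replicate 1 and 31.3% in replicate 2. In the clusters up to 5 kb it was 2.55% in replicate 1 and 3.10% in replicate 2. A longer region has more room to be touched by 2 or more clusters, and the domains were chosen by length. The contrast with all autosomal clusters is therefore a description only. Most split domains had few pieces. In replicate 1, 155 were in 2 pieces, 108 in 3, 25 in 4, 8 in 5, 2 in 6 and 1 in 8. In replicate 2, 154 were in 2, 66 in 3, 27 in 4, 5 in 5 and 1 in 6.

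The share of domains that were split increased with length in both lists. In replicate 1 it was 66.4% at 10 to 15 kb, 79.8% at 15 to 20 kb and 97.9% over 20 kb. In replicate 2 it was 56.8%, 65.5% and 83.0% over the same classes. The only domain over 20 kb that was single in replicate 1 was that of 23.9 kb on 2L described above. Replicate 2 had 8 such domains. Domains single in both lists were the shorter and higher-scoring ones, with a median length of 11.2 kb and a median score of 1.24, against 14.0 kb and 1.08 in those split in both. The longest that was single in both was 19.0 kb long and lay on 2L from 2208614 to 2227566, with a covered share of 94.8% in replicate 1 and 93.9% in replicate 2.

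**Figure D4:**
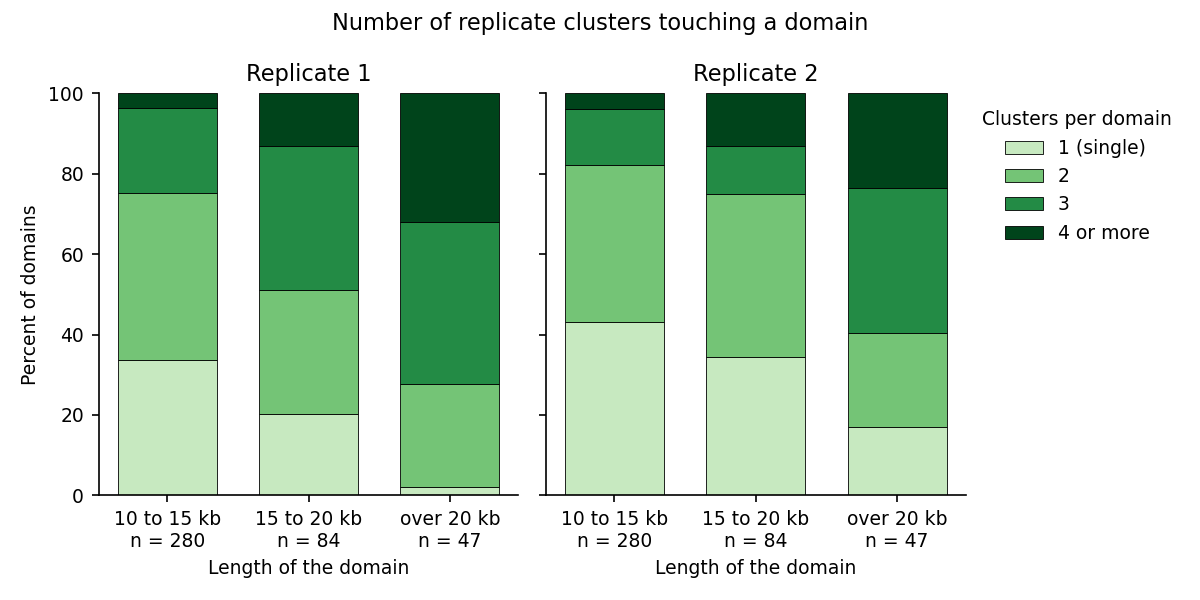
Percent of domains touched by 1, 2, 3 or 4 and more clusters of replicate 1 (left) and replicate 2 (right), by length of the domain. The part touched by 1 cluster shrinks from 33.6% to 2.13% in replicate 1 and from 43.2% to 17.0% in replicate 2.

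Among the domains, being split in replicate 2 was hardly related to being split in replicate 1. Domains were chosen as unbroken in the whole-series list, so this describes the chosen regions only. Of the domains split in replicate 2, 73.1% (67.3 to 78.2%) were split in replicate 1, and of those single in replicate 2, 72.2% (64.7 to 78.6%) were. Single in both were 44 domains, split in both 185, split in replicate 1 alone 114 and split in replicate 2 alone 68. The number of pieces was higher in replicate 1 for 163 domains, higher in replicate 2 for 115 and equal for 133.

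Most of the sequence in domains was covered in both libraries. Replicate 1 covered 86.1% of their base pairs and replicate 2 covered 90.7%. Both together covered 78.4%, and at least one covered 98.5%. The covered share of a domain had a median of 88.5% in replicate 1 (32.7 to 100.0%) and of 93.6% in replicate 2 (46.2 to 100.0%). It was at least 75% in 347 domains in replicate 1 and in 379 in replicate 2. Over all autosomal clusters, absent ones included, the median was 89.2% in replicate 1 and 85.3% in replicate 2. The domain median was thus above that of all autosomal clusters in replicate 2 only. In clusters over 5 and up to 10 kb the median was 89.0% in replicate 1. In replicate 2 it lay between those of the domains and of all autosomal clusters. Among the domains the share hardly changed with length: its median in domains over 20 kb was 89.3% in replicate 1 and 94.5% in replicate 2. Replicate 2 covered more of the domain in 259 cases and replicate 1 in 152. In X-linked clusters over 10 kb the order was turned round, with medians of 91.8% in replicate 1 and 81.5% in replicate 2 (47 clusters).

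The domains with the lowest covered shares were examined one by one. The least covered in replicate 1 was on 2L from 7471672 to 7482924, at 32.7%, and replicate 2 covered it at 98.9%. On 2L from 21631300 to 21644334 the shares were 39.1% in replicate 1 and 98.5% in replicate 2, and on 2R from 19871828 to 19883680 they were 40.7% and 97.0%. The least covered in replicate 2, on 2L from 15745888 to 15757188, stood at 46.2% there and at 93.7% in replicate 1. The second lowest in replicate 2, on 2R from 1910372 to 1921524, stood at 50.6% there and 68.7% in replicate 1. These regions were chosen after their values were seen. Over all domains, rho between the covered shares in the 2 replicates was -0.22, and it was -0.27 over the clusters over 5 and up to 10 kb. These coefficients run over regions picked from a list that bears the name of both libraries together, so they are descriptions only.

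**Figure D5:**
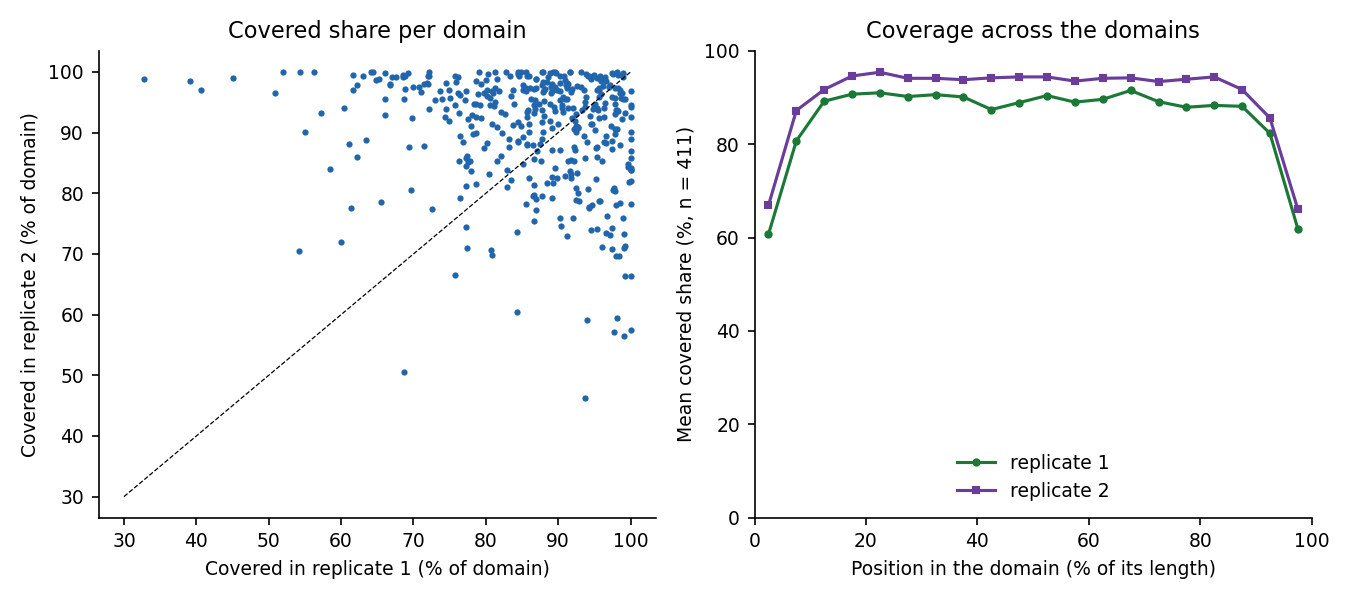
Left, percent of each domain covered by clusters of replicate 1 and of replicate 2, with 1 point per domain and the line of equality dashed. Right, mean covered share in 20 equal parts of the domain from its start to its end, which lies between 87.4 and 91.5% in replicate 1 and between 91.7 and 95.4% in replicate 2 over the 16 inner parts, and at 60.7 to 66.9% in the outermost.

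Inside the domains coverage was even, and it fell off at the edges. Split into 20 equal parts, the domains were covered on average at 87.4 to 91.5% in replicate 1 and at 91.7 to 95.4% in replicate 2 over the 16 inner parts. In the first and last parts the shares were 60.7% and 61.9% in replicate 1 and 66.9% and 66.1% in replicate 2. The replicate clusters tended to begin and end slightly inside the domain. The outermost start lay a median of 136 bp inside in replicate 1 and 90 bp in replicate 2, and the outermost end 123 and 99 bp inside. Both boundaries were within 500 bp of those of the domain in 159 domains (38.7%) in replicate 1 and 204 (49.6%) in replicate 2. Large shifts were found too, since touching clusters reached up to 14071 bp beyond the end of the domain in replicate 1 and up to 14496 bp in replicate 2.

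The breaks inside split domains were short and mostly at different places in the replicates. Replicate 1 had 492 gaps between the pieces, with a median of 538 bp and a longest of 7318 bp. Replicate 2 had 390, with a median of 403 bp and a longest of 3571 bp. Of these, 68.9% in replicate 1 and 77.4% in replicate 2 were under 1 kb. The gaps took up 6.97% of the base pairs in domains in replicate 1 and 4.17% in replicate 2. Only 46 of the gaps in replicate 1 (9.35%, 7.08 to 12.2%) touched a gap in replicate 2, and 46 of those in replicate 2 (11.8%, 8.96 to 15.4%) touched one in replicate 1. In base pairs, 14.7 kb were gap in both, which is 3.54% of the gap sequence of replicate 1 and 5.92% of that of replicate 2. The clusters over 5 and up to 10 kb gave 8.40% in replicate 1 and 7.73% in replicate 2 for the share of gaps that met a gap of the other. Domains were chosen as unbroken in the whole-series list, so the low share is a description of the chosen regions.

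In their largest pieces the domains also ranked above the middle of each replicate list. The score of the cluster that held most of the domain had a median percentile of 63.8 among the autosomal clusters of replicate 1 and 79.1 among those of replicate 2. Over all autosomal clusters touched in the replicate the medians were 55.7 in replicate 1 and 56.7 in replicate 2. In clusters over 5 and up to 10 kb the medians were 65.5 and 69.7, so the domains stood above these in replicate 2 only. The rank of the scores was shared only weakly between the replicates, with rho 0.25 over the 411 domains, against 0.53 over the 3775 shorter clusters touched in both. The narrower range of scores among the domains stands beside this lower value, and its part in it was not tested.

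Read from the replicate lists, long clusters were fewer. Replicate 1 had 178 autosomal clusters over 10 kb (3.00% of 5924) and replicate 2 had 237 (4.13% of 5732). By arm there were 49 in replicate 1 and 56 in replicate 2 on 2L, 38 and 58 on 2R, 33 and 51 on 3L, and 58 and 72 on 3R. Of those in replicate 1, 154 (86.5%, 80.7 to 90.8%) touched a domain, and 210 (88.6%, 83.9 to 92.1%) of those in replicate 2 did. The remaining 24 and 27 touched shorter clusters of the whole-series list, and 0 touched none. A cluster over 10 kb in replicate 1 met one over 10 kb in replicate 2 in 81 cases (45.5%), and the reverse held in 82 cases (34.6%). Of the domains, 79 (19.2%) had their largest piece in a cluster over 10 kb in both replicates, 69 in replicate 1 only and 127 in replicate 2 only. The other 136 (33.1%) had their largest piece in a cluster over 10 kb in neither replicate. Their median length was 11.9 kb, against 16.1 kb in the 79.

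Beside the long clusters of other chromosomes, the autosomal domains were intermediate in density. They numbered 4.25 per Mb, against 2.10 on the X (47 clusters) and 18.49 on chromosome 4 (25 clusters). The domains were 6.75% of all clusters on their arms, where long clusters were 3.27% of those on the X and 19.4% of those on chromosome 4. Their median length of 13.0 kb was near the 12.5 kb of those on the X and below the 17.8 kb on chromosome 4. Median scores were 1.08 in the domains, 1.18 on the X and 1.31 on chromosome 4. On the X the order of the replicates was turned round: 57.4% were split in replicate 1 (43.3 to 70.5%) and 80.9% in replicate 2 (67.5 to 89.6%), against 72.7% and 61.6% of the autosomal domains. On chromosome 4, 84.0% were split in replicate 1 (65.3 to 93.6%) and 60.0% in replicate 2 (40.7 to 76.6%). These are differences between 2 libraries, and no test was made of them.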

How the data were processed

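JHDM1 ChIP-seq was done on adult head nuclei with 2 ChIP and 2 input libraries. The submitters' processing notes name Bowtie 0.12.7. The authors deposited 3 lists of enriched regions (1 per ChIP library and 1 of the replicate set), each region with a score. Coordinates are FlyBase release 5, per the file headers. Not given in the sources used here are the unit of the score, the caller, its thresholds and how the third list was made. The lists were not built alike: the shortest cluster was 1001 bp in the third list and 1301 bp in each replicate list. Start coordinates were even numbers in 100% of the third list, 49.4% of replicate 1 and 49.7% of replicate 2. How this affects the absent shares, covered shares, gaps and boundaries was not tested. The input libraries were not analysed on their own. A stricter caller, a shallower library or another joining distance would change the number and length of clusters, and read depth is unknown.

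From these lists lengths, gaps, overlaps of at least 1 bp, covered shares and Spearman's rho were computed. Of the autosomal clusters of the third list, 1 was trimmed to the arm length; it was not a domain. Regions are named by rule (the 12 longest, the 5 highest and 5 lowest scores, the 5 on either side of the limit, the 5 in most pieces per replicate, the closest pairs and largest groups), while the densest bins, widest gaps and poorly covered regions were picked after their values were seen. The members and lists were chosen with earlier results of these data known. The code for counting pieces, covered shares, gaps inside domains and joining clusters was tested on simulated domains whose pieces lay wholly inside them. The other calculations were not tested in this way. The tools were matplotlib 3.10.9, scipy 1.17.1, pandas 2.3.3 and numpy 2.4.6 under Python 3.11.15.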

Additional observations from a re-analysis of the deposited data

How the results depend on the processing

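Of 52 alternative values computed for 19 results, 29 stayed within the spread set for them (1.5 times a count, the Wilson interval of a share, the SD between replicates otherwise) and 23 moved. The 0 domains absent from a replicate could not change under the settings tried, so these values, counted among the 29, are no check. The longest piece took up at least 18.8% of each domain in replicate 1 and 22.5% in replicate 2. Minimum overlaps of 500 bp or 10% of the domain therefore removed none. Joining clusters or raising the length limit cannot make a touched domain absent. The number of domains was 649 above 8 kb, 258 above 12 kb, 131 above 15 kb and 47 above 20 kb, and 683 when clusters up to 1000 bp apart were joined first; a single replicate list gave 178 to 237. Joining replicate clusters across 500 bp lowered the split share to 46.2% in replicate 1 and 33.3% in replicate 2, and across 1000 bp to 31.9% and 19.2%, so that most domains were then single. Above 15 kb it was 86.3% and 71.8%. The rho of score and length was 0.00 on 2L and 0.22 on 3R alone, and -0.05 to 0.10 in single replicate lists. The share of domains in groups was 39.9% at a link distance of 25 kb, 70.1% at 100 kb and 30.5% above 15 kb. The median gap was 323.0 kb above 15 kb and 221.8 to 365.5 kb in single replicate lists. Of the clusters over 15 kb in replicate 1, 80.0% touched a domain over 15 kb. The median gap in single lists, and the 15 kb limit for the gaps inside domains, boundaries, scores, positions and long replicate clusters, were chosen after seeing the data. No paired analysis was possible because only lists of ChIP enrichment were analysed, with no group to pair them with.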

Other observations

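Some high-scoring long clusters of the replicate lists lay outside the domains. The 3 given here were chosen after their values were seen. In replicate 1 a cluster of 10.7 kb on 2R from 2051591 to 2062260 had a score of 3.20, and one of 10.7 kb on 3R from 22079087 to 22089761 had a score of 2.31. The highest score among the clusters over 10 kb of that list was 3.20, and their median was 1.16. In replicate 2 a cluster of 10.0 kb on 3R from 2948055 to 2958066 scored 2.20, against a median of 1.48. The first and second of these met 2 shorter clusters each in the whole-series list and the third met 1, so none of the 3 touched a domain.

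Long stretches in the replicate lists that fell short of the limit in the whole-series list also came in adjacent pairs. On 2L, replicate 1 had clusters of 16.0 kb from 19504426 to 19520434 and of 12.9 kb from 19521346 to 19534249. On 3L, replicate 2 had clusters of 10.8 kb from 11051545 to 11062312 and of 13.5 kb from 11062968 to 11076427. The whole-series list broke the first pair into 2 clusters under each member, and the second into 2 and 4.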
